A study of Mus musculus with 24 samples.

Results

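The comparison described here set MPC5 podocytes with a Mof knockdown against MPC5 podocytes with a scrambled control, both given vehicle only. Its members are all 1990 genes of the authors' deposited table of this comparison, out of 13876 genes that the authors tested, so 14.3% of tested genes were called. On inspection every gene in it had an adjusted p under 0.05 (DESeq2, run by the authors), so a gene absent from it was either not tested or did not pass. MPC5 is a mouse line of glomerular podocytes. The cells compared were differentiated, at passage 20, and received DMSO, with 3 samples in each of the 2 groups. The series also holds the same pair of lines after 24 h of Adriamycin (doxorubicin, a topoisomerase poison) at 0.25 µg/ml, and mouse embryonic fibroblasts (MEFs) at passage 2, either wild type or with a Mof knockout, given vehicle or with 0.1 µg/ml of the drug. That makes 24 samples in 8 groups. The labels do not say how Mof was knocked down, whether each line is 1 clone, or whether samples came from separate cultures. The p-values therefore measure only how these samples spread, and that spread may be technical.

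MOF, the product of Kat8, is the acetyltransferase that places the acetyl group on lysine 16 of histone H4. It works in a pair of complexes: MSL, which marks gene bodies and is known from dosage compensation in flies, and NSL, which sits at promoters of widely expressed genes. Podocytes are the epithelial cells that wrap the capillaries of the kidney filter. Their foot processes are joined by the slit diaphragm, anchored by integrins to a basement membrane of type IV collagen and laminin, and held in shape by actin.

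Every fold change below is Mof knockdown over scramble on the log2 scale with its standard error (SE), copied from the authors' deposited table. The table holds 1 line per gene without single samples, so library depth is unknown and no sample can be shown on its own. The level given for a gene is the authors' mean normalized count over the samples of the table. The direction was read from the sign of Kat8. Kat8 (ENSMUSG00000030801, GRCm38 chromosome 7, 127912516 to 127925837, plus strand, protein coding) stood in the authors' deposited table at -1.49 ± 0.15, or 35.6% of scramble, at a mean count of 262 (adjusted p 2.54e-21). Since it set the direction, this value does not test the labels. Prss8 overlaps Kat8 by 122 bases of the other strand. The sources used here do not give strand use in the counting.

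More genes rose than fell. Of the 1990 listed genes, 1207 were higher (8.7% of tested genes) and 783 lower (5.64%) in the authors' deposited table, so 60.7% of the listed genes were higher. The increases were also larger. At least 2-fold changes numbered 261 upward (1.88% of tested genes) and 47 downward (0.339%), and at least 4-fold changes numbered 51 upward and 0 downward. The median listed increase was 0.58 and the median listed decrease -0.42 (74.8% of scramble). The split depends on scaling: with all fold changes moved up by 0.1, 1535 listed genes stayed past the threshold, 78.6% of them higher, and with a move down by 0.1, 1553 stayed, 49.6% of them higher. No listed gene changed sign under either move, since the smallest listed change was 0.20. Weakly expressed genes needed a larger change to be listed: the 182 higher genes with a mean count under 100 had a median of 1.46, and the 516 with a mean count from 100 to 1000 had a median of 0.62. At the edge of the table, Sap30bp (-0.26 ± 0.10) and Kansl1l (0.42 ± 0.16) lay at adjusted p-values of 0.04998 and 0.04993, and genes beyond it carry no value. Of the listed genes, 1929 were protein coding in GENCODE M21.

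**Figure D1:**
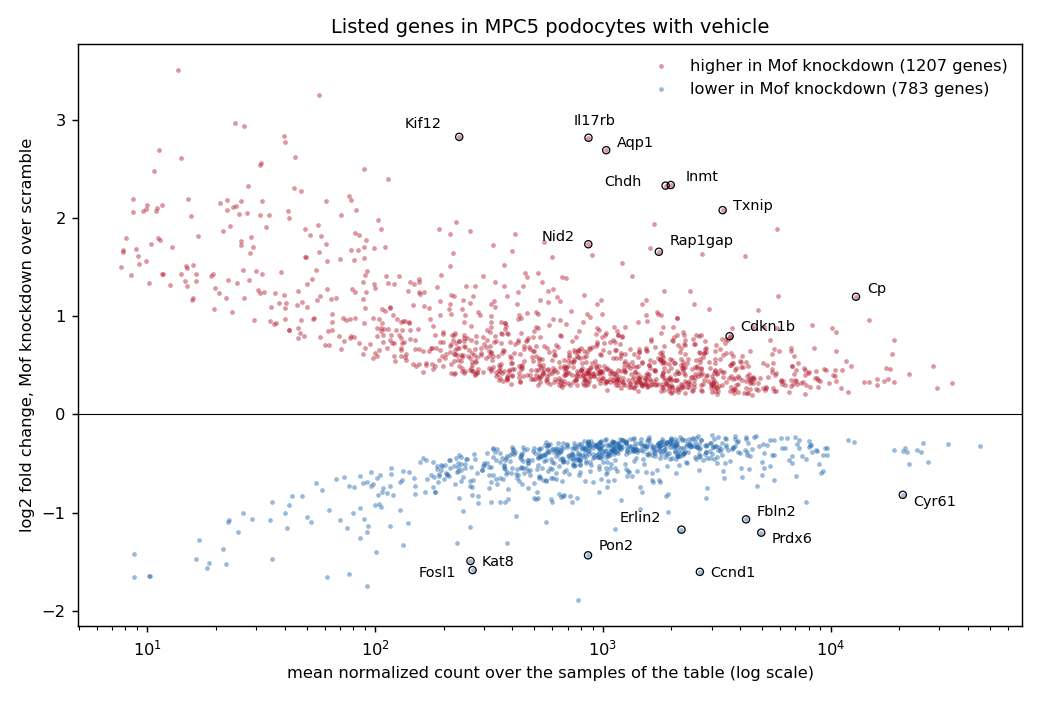
Each point is 1 of the 1990 listed genes of the authors' deposited table, with its mean normalized count on a log scale and its log2 fold change, Mof knockdown over scramble, red where higher and blue where lower. Named genes are circled. The higher genes reach 3.50 and the lower genes -1.89, and the empty band around 0 widens toward low counts.

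The largest increases are given for genes with a mean count of 100 or more, predicted genes left out. Kif12 (ENSMUSG00000028357, chromosome 4, 63165630 to 63172131), a kinesin motor of kidney epithelium, rose by 2.83 ± 0.52 (7.09-fold). Aqp1 (ENSMUSG00000004655, chromosome 6, 55336432 to 55348555), a water channel of the proximal tubule, rose by 2.69 ± 0.23 (adjusted p 2.34e-28), and Inmt, an amine methyltransferase encoded nearby on chromosome 6 (55170626 to 55175043), by 2.34 ± 0.34. Il17rb, a receptor for interleukin-17 cytokines, rose by 2.82 ± 0.39, and Chdh, the first enzyme that turns choline into betaine, by 2.33 ± 0.38. These genes are neighbours, at 29996135 to 30008896 and 30009023 to 30040527 of chromosome 14, and Selk, Cacna1d and Tkt beside them were listed as higher as well. Other large increases in the authors' deposited table were those of C4bp, a complement inhibitor (2.40 ± 0.31), Txnip, which binds and inhibits thioredoxin (2.08 ± 0.45), and Enpep, the aminopeptidase that cleaves angiotensin II (1.96 ± 0.25). Abi3bp, a matrix protein, rose by 1.89 ± 0.33 at a mean count of 5801. Il17rb shares bases with Actr8, Chdh with Cacna1d, Txnip with Gm15441, Nrxn2 with Slc22a12, Fosl1 with Ccdc85b and Ccnd1 with LTO1, each on the other strand, so their reads may not be separable and their values are uncertain. The same limit applies to other genes named below that overlap a gene on the other strand. Rap1gap, Nid2, Itga9, Ctgf, Stk4, Pax8 and Cp are among them.

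The lowest fold changes below are also those at a mean count of 100 or more with predicted genes left out. Without that limit the lowest was 1110002E22Rik at -1.89 ± 0.23. Ccnd1 (ENSMUSG00000070348, chromosome 7, 144929931 to 144939925), which encodes cyclin D1, fell in the authors' deposited table to 32.9% of scramble (-1.60 ± 0.44, adjusted p 0.00448). Its SE was wide for a mean count of 2665. Fosl1, an AP-1 subunit, fell to 33.4% (-1.58 ± 0.18), and Etv4, an ETS factor, stood at -1.10 ± 0.39 with an adjusted p of 0.0362. Pon2, an intracellular lactonase with antioxidant activity, fell to 37.0% (-1.43 ± 0.13). Prdx6, a peroxiredoxin that reduces lipid peroxides, fell to 43.4% (-1.20 ± 0.09, adjusted p 1.29e-37), and Erlin2, a lipid raft protein of the endoplasmic reticulum, to 44.4% (-1.17 ± 0.08, adjusted p 7.04e-40). Only Rap1gap, which switches off the GTPase RAP1, had a smaller adjusted p in the authors' deposited table (3.50e-41), at an increase of 1.66 ± 0.12. Nid2, Cdkn1b and Scel completed, with Rap1gap and Aqp1, the 5 higher genes of smallest adjusted p, and the 5 lower ones were Erlin2, Prdx6, Pon2, Prss23 and Kat8.

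Genes were next grouped into 69 lists, which held 4032 distinct annotated genes and 594 of the listed ones. The remaining 1396 listed genes fell in no list. A share here counts listed genes over all annotated members of a list, including members that the cells may not express, while the 14.3% counts tested genes only. Shares ran from 0% to over 40%. The lists with the highest share were YAP and TEAD (41.4% of 29), Hox genes (41.0% of 39) and interferon sensing with MHC class I (40.7% of 54). At the other end, 0 of 48 genes of homologous recombination and Fanconi repair were listed, 3 of 107 nuclear genes of the respiratory chain and 3 of 62 genes of DNA replication.

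**Figure D2:**
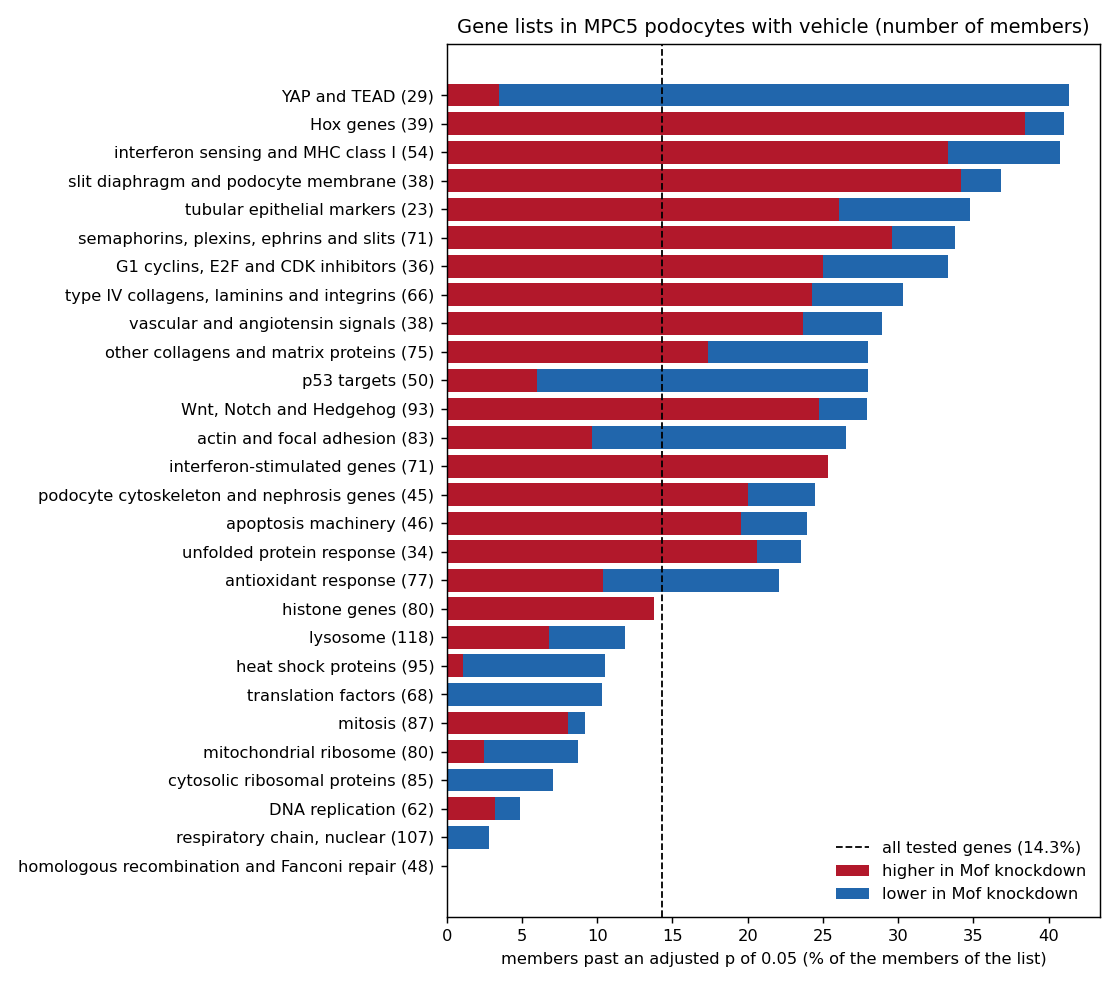
Bars give, for 28 of the lists, the members past the threshold of the authors' deposited table as a percentage of the members of the list, red for higher and blue for lower in Mof knockdown, with the number of members in parentheses. The dashed line marks the 14.3% of all tested genes. Interferon-stimulated, histone and Hox bars are red or nearly so, and YAP and TEAD, p53 target and translation factor bars are mostly blue.

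Among the listed genes of the podocyte surface, most were higher. Of 38 genes of the slit diaphragm and podocyte membrane, 13 rose and 1 fell, 36.8% listed against 14.3% of tested genes. Among the slit diaphragm members, Kirrel, which encodes NEPH1 (the partner of nephrin), rose by 0.61 ± 0.11, and Cdh3, P-cadherin, by 0.80 ± 0.15. Tjp1, the scaffold ZO-1, rose by 0.27 ± 0.10, and Prkci, the polarity kinase of the PAR complex, by 0.39 ± 0.10. Among membrane proteins, Enpep was followed by Mme, the peptidase neprilysin (0.84 ± 0.13), Dag1, dystroglycan (0.75 ± 0.11), Podxl, the charged sialomucin podocalyxin (0.56 ± 0.14), and Pdpn, podoplanin (0.53 ± 0.15). Thsd7a and Htra1, a pair of autoantigens of membranous nephropathy, rose by 1.25 ± 0.36 and 1.03 ± 0.14. Htra1 shares bases with Fgfr2 as annotated on the other strand, so its value is uncertain. Plce1, a phospholipase mutated in nephrotic syndrome, rose by 0.75 ± 0.20. The exception was Cd55, which restrains complement and fell by 1.07 on the log2 scale (SE 0.26).

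Of 18 transcription factors of podocytes and their precursors, 5 rose and 0 fell: Foxd1 (0.81 ± 0.15), Pax2 (0.63 ± 0.14), Zhx3 (0.47 ± 0.14), Foxc1 (0.43 ± 0.12) and Pax8 (0.42 ± 0.10) in the authors' deposited table. In the list of podocyte cytoskeleton and nephrosis genes, 9 of 45 rose and 2 fell. Synpo, the actin-binding protein synaptopodin, rose by 0.62 ± 0.17. Arhgap24, which inactivates RAC1, rose by 0.97 ± 0.20, and the adhesion scaffolds Kank1 and Kank2 rose by 0.79 ± 0.12 and 0.65 ± 0.11. Dlc1, a GTPase-activating protein, stood at -0.995 (SE 0.11).

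The label was checked against defining markers as far as the tables allow. Nphs1 (nephrin) and Wt1 were in neither podocyte table, so their levels in these cells are unknown here. Synpo (mean count 2781), Podxl (2004) and Kirrel (5516) were present. So were markers of tubular epithelium, of which 6 of 23 rose and 2 fell (34.8% listed). Cdh16, kidney-specific cadherin, rose by 1.64 ± 0.34 at a mean count of 2722, and Lrp2, the endocytic receptor megalin, by 0.36 ± 0.13 at 6039. The keratins Krt8 and Krt18 stood at -0.35 ± 0.12 and -0.82 ± 0.15 in the authors' deposited table. Outside the tubular list, the claudin genes Cldn2 (2.97 ± 0.49) and Cldn19 (2.77 ± 0.46) rose at mean counts of 24.3 and 40.2. They belong to the keratins and claudins, of which 3 of 74 rose and 4 fell (9.46% listed, against 14.3% of tested genes). The tubular list holds Aqp1, and it holds Pax8, which is also counted among the podocyte factors. The part of a changed mix of cells or cell states was not tested, and fewer cells of a type and less RNA per cell cannot be told apart in bulk samples. Of other cell types, 1 of 20 macrophage and leukocyte markers was listed (Csf1r, 1.15 ± 0.21), 1 of 17 endothelial (Plvap, 1.17 ± 0.43 at a mean count of 15.8), 1 of 19 neural (Ina, 1.42 ± 0.52 at 8.47) and 0 of 17 fibroblast markers. Mesangial and pericyte markers had 1 higher and 3 lower of 15. The summed level of a marker list in each group could not be formed without values per sample.

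Most listed basement membrane and integrin genes were higher. Of 66 genes for type IV collagens, laminins, other basement membrane components and integrins, 16 rose and 4 fell (30.3% listed). Lama1, the laminin alpha 1 chain, rose by 1.83 ± 0.23 (3.57-fold), and Nid2, nidogen 2, which bridges laminin and collagen, by 1.73 ± 0.15 (3.32-fold). The integrin chains Itga9 (1.62 ± 0.16), Itgb8 (1.20 ± 0.19), Itga1 (1.02 ± 0.16) and Itgb6 (0.93 ± 0.17) rose. Itga3, the chain that binds laminin in the podocyte foot process, fell by 0.37 on the log2 scale (SE 0.08), and Itga6, another laminin receptor chain, by 0.35 (SE 0.11). Within the type IV collagen chains of the mature glomerular membrane, Col4a5 rose by 0.32 ± 0.09 and Col4a4 fell by 0.75 (SE 0.22), while Col4a2, a chain of the common network, rose by 0.45 ± 0.11. Fbln2, fibulin 2, fell by 1.07 on the log2 scale (SE 0.14). Npnt, nephronectin, a ligand of integrin alpha 8, rose by 0.88 ± 0.13. Among 75 other collagens and matrix proteins, 13 rose and 8 fell, with Fn1, fibronectin, at -0.32 ± 0.12 and a mean count of 45042, the highest among the listed genes.

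All but 1 of the listed genes of the HIPPO and YAP pathway were lower. YAP and TAZ are coactivators of TEAD factors that respond to cell tension, and the HIPPO kinases restrain them. Of 29 genes of this pathway, 1 rose and 11 fell. The falls included the standard targets Ctgf (ENSMUSG00000019997, chromosome 10, 24595442 to 24598683; -0.85 ± 0.11, adjusted p 1.37e-12), Cyr61 (-0.82 ± 0.17, mean count 20733) and Ankrd1 (-0.59 ± 0.08) in the authors' deposited table. They also included pathway kinases and cofactors that restrain YAP: Stk4, the kinase MST1 (-0.87 ± 0.10), Lats2 (-0.35 ± 0.11), Nf2 (-0.37 ± 0.13), Mob1a and Mob1b. Targets and restraining genes thus fell side by side. The 1 gene that rose, Amot (0.48 ± 0.14), encodes a scaffold that binds YAP. At an adjusted p of 0.01 the count of 11 became 4, and it was also 4 with all fold changes moved up by 0.1. Of 83 genes of actin and focal adhesions, 8 rose and 14 fell. Pxn, paxillin, rose by 0.60 ± 0.13, whereas Actg1, cytoplasmic gamma actin, fell by 0.37 (SE 0.08), Fscn1, the bundling protein fascin, by 0.50 (SE 0.10), and Pdlim5 by 0.62 (SE 0.13) on the log2 scale. The 14 falls became 7 at 0.01 and 5 with the upward move. Mylk, myosin light chain kinase, rose by 1.69 ± 0.21, opposite to its fellow contractile genes Cald1 (-0.48 ± 0.07) and Acta2 (-0.36 ± 0.11).

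**Figure D3:**
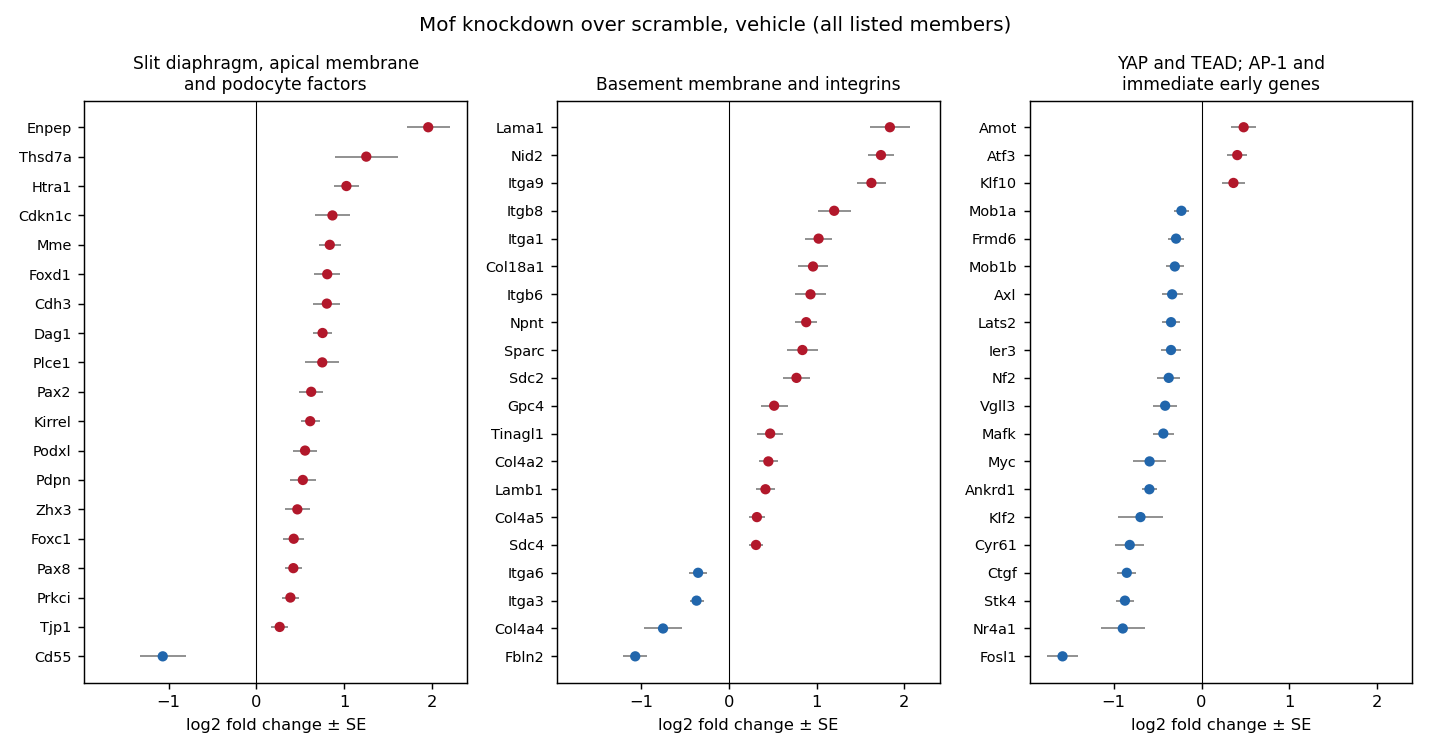
Points give the log2 fold change, Mof knockdown over scramble, and bars its SE in the authors' deposited table, for the listed members of the podocyte membrane and transcription factor lists (left), of the basement membrane and integrin list (middle), and of the YAP, AP-1 and immediate early gene lists (right). In the left panel 18 of 19 genes lie above 0, and in the right panel 3 of 20 do.

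Listed immediate early genes and genes of the FGF and EGF axes were more often lower than higher. Of 26 AP-1 and immediate early genes, 6 fell and 2 rose: Nr4a1, an orphan nuclear receptor, stood at -0.90 ± 0.25, Klf2 at -0.70 ± 0.26 and Myc at -0.59 ± 0.19, beside Fosl1. Among 44 genes of the FGF and EGF axes, 3 rose and 8 fell. The lower members held feedback inhibitors that ERK signalling induces: Dusp5 (-0.89 ± 0.14) and Dusp6 (-0.81 ± 0.16), phosphatases of ERK, and Spry4 (-1.15 ± 0.37). They also held the neurotrophic ligands Bdnf (-0.89 ± 0.20) and Gdnf (-1.08 ± 0.33). The receptors Fgfr3 (1.35 ± 0.22), Erbb4 (1.25 ± 0.19) and Fgfr2 (0.54 ± 0.10) were the 3 that rose, and the receptor Met fell by 0.23 (SE 0.08). As annotated, Fgfr2 shares bases with many other genes on both strands, so its reads may not be separable and its value is uncertain. Of 17 genes of the IGF axis 3 rose and 1 fell. At an adjusted p of 0.01 the 6 lower AP-1 and immediate early genes became 3, and the 2 higher became 1. In the IGF, FGF and EGF axes together, the 9 lower genes became 4 and the 6 higher became 5. The lower genes were thus no longer the more numerous there.

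Inhibitors of cyclin-dependent kinases were among the higher genes. Of 36 genes of the G1 phase, 9 rose and 3 fell (33.3% listed). The higher genes included members of both inhibitor families: Cdkn1b, p27 (0.80 ± 0.07, adjusted p 1.05e-23), Cdkn1c, p57 (0.87 ± 0.20), Cdkn2c (0.75 ± 0.16), Cdkn2d (0.51 ± 0.14), Cdkn2a (0.51 ± 0.13) and Cdkn2b (0.39 ± 0.14). Ccnd1, Myc and E2f3 were the 3 that fell. Of 87 mitotic genes 7 rose and 1 fell (9.20% listed), with Mki67 at 0.45 ± 0.16 and Ccnb2 at 0.47 ± 0.16. At an adjusted p of 0.01, and with a downward move by 0.1, 1 of these 7 was left. Mcm6 and Mcm7, subunits of the replicative helicase, rose by 0.40 ± 0.09 and 0.31 ± 0.10.

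More listed targets of p53, the transcription factor of the DNA damage response, were lower than higher. Of 50 targets, 3 rose and 11 fell (28% listed). The falls were led by Gdf15, a stress cytokine (-0.79 ± 0.17), Zmat3, an RNA-binding protein (-0.73 ± 0.13), Perp, a membrane protein of desmosomes (-0.67 ± 0.11), and Mdm2, the ligase that degrades p53 (-0.50 ± 0.11, mean count 8844). Steap3 had the lowest value, -1.28 ± 0.43, at a mean count of 16.8. Sesn1 (0.78 ± 0.13), Bbc3 (PUMA, 0.55 ± 0.12) and Xpc (0.25 ± 0.09) rose. Of 46 genes of apoptosis 9 were higher and 2 lower. The higher ones were on both sides of the process: the death-promoting Bmf (2.32 ± 0.44, mean count 27.7), Bcl2l11 (BIM, 0.66 ± 0.11) and Casp12 (1.38 ± 0.19), and the protective Bcl2 (0.59 ± 0.10), Birc2 (0.44 ± 0.10) and Xiap (0.31 ± 0.10).

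Interferon-stimulated genes rose without exception among those listed: 18 of 71 were higher and 0 lower (25.4%), with a median of 0.78 against 0.58 over all higher listed genes. Ifit3, which binds foreign RNA with its relatives, rose by 1.26 ± 0.18 at a mean count of 1845, and Ifit2 by 0.55 ± 0.09 at 2560. Irf7, the factor that amplifies the response, rose by 0.96 ± 0.24. The guanylate-binding and immunity-related GTPases followed, with Gbp2 at 1.44 ± 0.45, Iigp1 at 1.29 ± 0.33, Tgtp2 at 0.81 ± 0.24 and Irgm2 at 0.63 ± 0.15. Of the 18, 10 passed an adjusted p of 0.01 and 12 stayed past 0.05 with a downward move of 0.1. Antigen presentation by MHC class I rose as well, in 11 of 18 genes with 0 lower. H2-D1 (0.48 ± 0.11, mean count 17565) and H2-K1 (0.41 ± 0.10, 22052) encode the class I heavy chains, Tapbp (0.77 ± 0.14) the loading factor tapasin, and Psmb8 (0.28 ± 0.10) and Psmb9 (0.34 ± 0.11) subunits of the immunoproteasome. Class I genes are near-identical copies, so reads may be split between them. Socs3, a feedback inhibitor of JAK and STAT signalling, rose by 1.66 ± 0.20, Stat3 by 0.57 ± 0.09 and Irf1 by 0.40 ± 0.11. Ifngr2, a chain of the interferon-gamma receptor, fell by 0.66 (SE 0.13). Among 36 interferon sensors and factors, 7 rose and 4 fell, so this group went in both directions. At an adjusted p of 0.01, 5 of the 7 higher and all 4 lower ones passed. Of the 18 higher genes of interferon sensing and MHC class I together, 11 passed an adjusted p of 0.01.

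Promoter sequences of the higher interferon-stimulated genes were searched for motifs, and windows from 4 of these genes are printed as examples. RefSeq promoters (GRCm38.p6, 250 bases before to 50 bases after each start) were matched to 1549 of the 1990 listed genes. The interferon-stimulated response element, searched on both strands as GAAA, any 2 bases and GAAA again, lay in the promoters of 8 of the 15 matched genes of this list (53.3%), against 3.99% of all genes with a promoter and 3.74% of those tested in MEFs. The AP-1 site (TGANTCA) lay in 5 of the same 15 genes (33.3%), against 8.97% of all genes. Over the full table the interferon-stimulated response element lay in 4.82% of higher and 4.06% of lower genes. Unlisted members of the interferon list were not searched as a set, so its share does not set the listed members apart from them. Each window below holds the match in capitals and 25 flanking bases on either side, 5′ to 3′ on the strand of the gene, where a pair of TTTC with 2 bases between them is the same element read from the other strand. They lie at chr19:34640760-34640819 (Ifit1, plus strand), chr3:142620579-142620638 (Gbp2, plus strand), chr11:58214888-58214947 (Irgm2, plus strand) and chr11:49064248-49064307 (Tgtp2, minus strand). The match in Ifit1 is followed by another in the lower-case bases.
Ifit1: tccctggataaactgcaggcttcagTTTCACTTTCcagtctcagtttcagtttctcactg
Gbp2: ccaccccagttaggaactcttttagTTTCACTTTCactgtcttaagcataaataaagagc
Irgm2: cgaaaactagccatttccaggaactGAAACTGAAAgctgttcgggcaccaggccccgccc
Tgtp2: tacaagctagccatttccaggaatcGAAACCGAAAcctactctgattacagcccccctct

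The TEAD site, searched as ACATTCC on both strands, lay in the promoters of 3 of 11 matched listed genes of the YAP list (Axl, Cyr61 and Vgll3), against 4.47% of all genes. Over the full table it lay in 4.38% of lower and 5.47% of higher genes, so it was no more common among lower genes. The CLEAR-type E-box (TCACGTG) also lay in 3 of these 11 genes, against 4.29% of all genes, so this count is not particular to the TEAD site. For Cyr61 and Vgll3, both lower in the knockdown, the TEAD site lies close to the start, at chr3:145650058-145650114 (minus strand) and chr16:65815100-65815156 (plus strand), with the site in capitals. Ctgf and Ankrd1 are not among those with a match, which says only that these letters are not in this window.
Cyr61: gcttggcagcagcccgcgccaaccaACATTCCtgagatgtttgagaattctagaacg
Vgll3: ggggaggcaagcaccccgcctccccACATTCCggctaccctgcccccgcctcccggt

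Among the 11 motifs searched, the one whose share differed most in ratio between higher and lower genes was the ETS site, CCGGAAG on either strand. It lay in the promoters of 21.4% of lower genes and 7.93% of higher genes. Among genes with larger changes it lay in 1.61% of those higher by at least 2-fold and 8.78% of those lower by at least 1.5-fold. The share was 9.93% over all genes with a promoter and 18.7% over genes tested in MEFs with vehicle. Lower genes as a whole thus lay near tested genes, while higher genes and genes lower by at least 1.5-fold lay under them. Of the lower ribosomal protein genes with a promoter, 3 of 5 held the ETS site. Unlisted ribosomal protein genes were not searched as a set, so this count does not set the lower ones apart from them. Windows of Rps2 and Rps25 show the site at chr17:24719911-24719967 and chr9:44407616-44407672 (both plus strand), in Rps2 read from the other strand.
Rps2: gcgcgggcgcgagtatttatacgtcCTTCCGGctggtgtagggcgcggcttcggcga
Rps25: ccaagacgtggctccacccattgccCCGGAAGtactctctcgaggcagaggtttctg
The other motifs searched, all on both strands, were AP-1 (TGANTCA), the CLEAR-type E-box (TCACGTG), E2F (TTTCCCGC) and the antioxidant response element (TGAC, any 3 bases and GCA). The cAMP response element was searched as TGACGTCA and the inverted CCAAT box as ATTGG. The letters TATAAA stood for the TATA box, and those of the SP site were GGGGCGG. The letters of SP and the inverted CCAAT box were common, in 51.3% and 43.3% of lower and 53.3% and 46.9% of higher genes.

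Several runs of neighbouring genes were listed in 1 direction, while others were mixed. The longest run, 10 genes on chromosome 11, had 8 higher and 2 lower. A run of 8 genes on chromosome 17 had 6 higher and 2 lower, and 1 of 7 genes on chromosome 19 had 4 higher and 3 lower. Of 39 Hox genes, which set position along the body axis, 15 rose and 1 fell. On chromosome 6, 6 neighbouring genes from Hoxa3 to Hoxa10 (52169062 to 52240854) rose by 0.45 to 0.83. On chromosome 11, 5 genes from Hoxb9 to Hoxb2 (96271457 to 96354012) rose by 0.22 to 0.91. On chromosome 15, Hoxc8 to Hoxc11 rose and their neighbour Hoxc13 stood at -0.46 ± 0.13. The largest Hox increase in the authors' deposited table was Hoxb8 (0.91 ± 0.14, adjusted p 3.09e-09). A run of 6 genes at the Ifit locus of chromosome 19 (34550694 to 34747289) was higher throughout. So was a run of 7 genes on chromosome 8 (94666600 to 95202812) that includes Cx3cl1, a membrane-bound chemokine, and the adhesion receptor genes Gpr56 and Gpr97. Runs joined listed genes no more than 100000 bases apart, and unlisted genes between them were not considered. On the X chromosome 47 genes were listed, 37 of them higher (78.7%, against 60.7% over all chromosomes). X genes made up 2.37% of the listed genes and 3.51% of those tested in MEFs with vehicle.

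Developmental signals and guidance cues were among the broader increases. Of 71 semaphorins, plexins, ephrins, slits and their kin, 21 rose and 3 fell (33.8% listed). Ntng1, netrin G1, rose by 3.25 ± 0.45 at a mean count of 56.7, Ntn4 by 1.41 ± 0.21 and Sema5a by 1.06 ± 0.16 at 4792. Sema3a and Sema3f, secreted guidance cues, rose by 0.31 ± 0.09 and 0.53 ± 0.10, with their receptors Nrp1 (0.57 ± 0.16) and Nrp2 (0.31 ± 0.10). In the Wnt list 12 of 55 rose and 1 fell, including the ligand Wnt5a (0.90 ± 0.12), its receptor Ror1 (1.31 ± 0.23) and the receptors Fzd4, Fzd8 and Fzd2. In the Hedgehog list 5 of 15 rose and 0 fell: the co-receptors Cdon (1.13 ± 0.15), Gas1 (1.13 ± 0.20) and Boc (1.33 ± 0.27), the receptor and target Ptch1 (0.66 ± 0.11), and Gli2. In the Notch list 6 of 23 rose and 2 fell, with Notch1 at 0.48 ± 0.10 and Notch3 at -0.86 ± 0.23. Of vascular signals, Edn1, endothelin 1, rose by 1.03 ± 0.16, Pdgfd by 1.15 ± 0.15 and Pdgfc by 0.63 ± 0.11. Agt, angiotensinogen, rose by 2.54 ± 0.37 at a mean count of 31.1.

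Few genes of protein synthesis were listed, and those were lower. Of 85 cytosolic ribosomal protein genes 6 were lower and 0 higher (7.06%), between -0.36 and -0.28, and of 68 translation factor genes 7 were lower and 0 higher (10.3%). With fold changes moved up by 0.1, 0 and 1 of these stayed past the threshold. Heat shock proteins had 9 lower and 1 higher of 95, with Hspd1 (-0.35 ± 0.11) and Hspe1 (-0.49 ± 0.14), the mitochondrial chaperonin pair, among them. The 1 that rose, Hspa5 (0.33 ± 0.09), is the chaperone BiP of the endoplasmic reticulum, and in the unfolded protein response list 7 of 34 rose and 1 fell, with Hsp90b1 (0.33 ± 0.08) and Calr (0.34 ± 0.10). Of the lysosome list 8 of 118 rose and 6 fell (11.9%), and of VPS, ESCRT and sorting nexin genes 1 of 79 rose and 6 fell (8.86%). At an adjusted p of 0.01 the 9 lower heat shock genes became 2, the 7 higher genes of the unfolded protein response 4, the 8 higher lysosome genes 5 and the 6 lower VPS, ESCRT and sorting nexin genes 3. With fold changes moved up by 0.1, 2 of the lower heat shock genes, 1 of the 6 lower lysosome genes and 0 of the 6 lower VPS, ESCRT and sorting nexin genes stayed past the threshold. With the downward move, 4 higher genes each stayed in the unfolded protein response and lysosome lists.

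Antioxidant genes went in both directions, with 8 of 77 higher and 9 lower. Txnip rose 4.23-fold, and Txnrd1, thioredoxin reductase, fell by 0.42 (SE 0.07). The transcription factor Nfe2l2 (NRF2) rose by 0.42 ± 0.11 and its inhibitor Keap1 by 0.45 ± 0.15. Gstm1 rose by 0.88 ± 0.16, while the NRF2 target Akr1b8 stood at -0.58 ± 0.12 in the authors' deposited table. Of 51 genes of fatty acid oxidation and the TCA cycle 7 rose and 5 fell, and of 41 genes of mitochondrial dynamics and quality control 3 rose and 5 fell. At an adjusted p of 0.01 these became 6 and 1, and 1 and 3. Among them, Ppargc1a, the coactivator PGC-1alpha, rose by 1.25 ± 0.18, and the carnitine shuttle enzymes Cpt1a and Cpt2 by 0.80 ± 0.15 and 0.60 ± 0.15. Phb2, a prohibitin of the inner membrane, stood at -0.48 ± 0.11 and Tomm70a, an import receptor of the outer membrane, at -0.26 ± 0.07. Ldha, lactate dehydrogenase A, fell by 0.55 (SE 0.12).

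Chromatin genes were listed in small numbers that differed by list. None of the 9 NSL subunit genes was listed. Of the 4 MSL subunit genes, Msl3 (0.42 ± 0.11) and Msl2 (0.29 ± 0.09) rose. Among MOF's relatives of the MYST family and their partners 4 of 16 rose and 1 fell, with Kat6b at 0.45 ± 0.10 and Brpf3 at 0.42 ± 0.11. Of histone deacetylases and sirtuins 2 of 18 rose and 0 fell, and of histone methyltransferases and demethylases 3 of 52 rose and 1 fell. Histone genes had 11 of 80 listed (13.8%, near the 14.3% of tested genes), all of them higher. H2afx rose by 1.27 ± 0.23 and H3f3a by 0.67 ± 0.16. Zinc finger genes named Zfp had 10 higher and 13 lower of 395 (5.82%), which became 5 and 8 at an adjusted p of 0.01.

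The table of the same lines with Adriamycin, made from other samples, showed which changes recurred. That table calls far more genes, 9578 of 17184 tested (55.7%). It listed 1518 of the 1990 genes, which is 76.3% of this table and 15.8% of the other. Of these, 997 had the same direction (595 higher and 402 lower in both) and 521 the opposite (300 higher with vehicle and lower with Adriamycin, 221 the reverse). Kif12 (2.83 with vehicle and 2.82 with Adriamycin), C4bp (2.40 and 2.58), Inmt (2.34 and 2.41) and Pon2 (-1.43 and -1.44) had nearly equal values in the authors' deposited tables. The difference between the tables was tested for the 1518 genes with a z test on the authors' fold changes and SEs. It passed an adjusted p of 0.05 in 962 (63.4%). The 521 genes of opposite direction are among these by construction, since each had passed in both tables, so for them the difference is a description. Of the 997 genes of the same direction, 390 had a larger change with Adriamycin and 51 a smaller one. With vehicle fold changes rescaled to those with Adriamycin these became 208 and 115. The YAP targets Ctgf, Cyr61 and Ankrd1 were among the opposites, but the YAP list as a whole was split. Of its 9 lower genes that were in both tables, 5 were higher and 4 lower with Adriamycin. Over the whole list of 29, 13 were higher and 9 lower with Adriamycin. Ctgf went from -0.85 to 2.54, a difference of 3.40 ± 0.23, Cyr61 from -0.82 to 1.68 (2.50 ± 0.17) and Ankrd1 from -0.59 to 2.26 (2.85 ± 0.25). Among p53 targets Gdf15 went from -0.79 to 1.37 (2.16 ± 0.19) and Mdm2 from -0.50 to 0.28 (0.78 ± 0.12), and 6 of the 11 lower targets were higher with Adriamycin (27.8% of all genes tested there were higher and 27.9% lower). Over the whole list of 50 p53 targets, 21 were higher and 16 lower with Adriamycin. Lama1 reversed from 1.83 to -0.86 (-2.69 ± 0.30) and Cdkn1c from 0.87 to -1.95 (-2.82 ± 0.26). Cdkn1b stood at 0.80 and 0.76, a difference of -0.04 ± 0.10 (adjusted p 0.786). Of the 14 higher interferon-stimulated genes in both tables, 13 had the same direction, Usp18 being the exception (0.57 and -1.32). Over the whole list of 71, 40 were higher and 10 lower with Adriamycin.

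**Figure D4:**
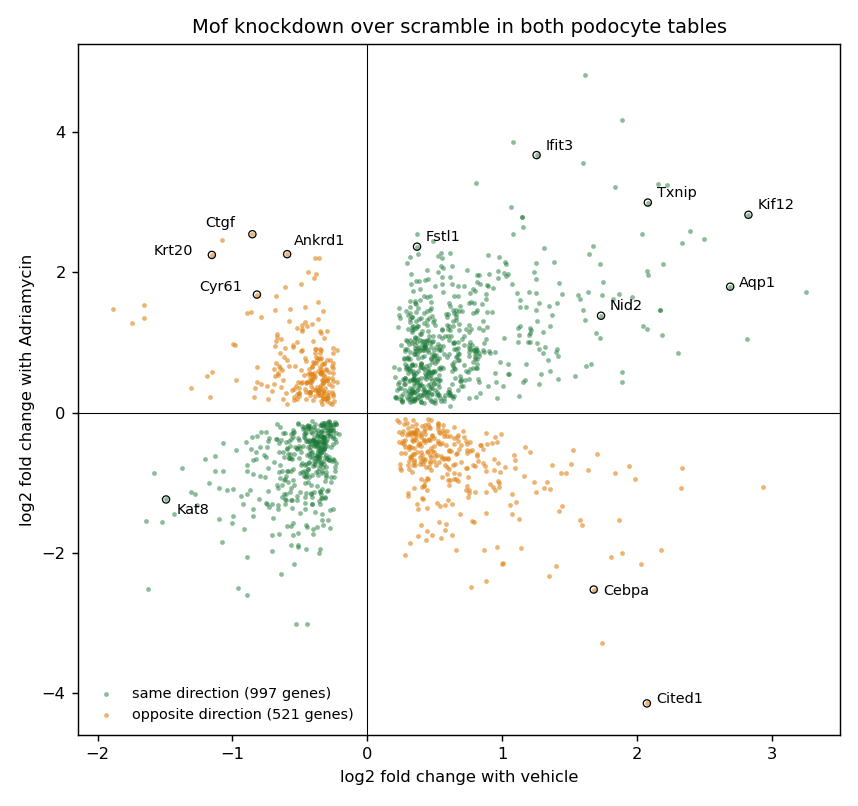
Each point is 1 of the 1518 genes in both podocyte tables, with its log2 fold change, Mof knockdown over scramble, with vehicle (horizontal) and with Adriamycin (vertical). Green points (997) share a direction and orange points (521) do not, and Ctgf, Cyr61 and Ankrd1 lie in the upper left.

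The MEF table lists all genes, so members have values there whether or not they passed. Of the 1983 listed genes with a fold change in MEFs with vehicle, 1132 (57.1%) had the same sign in Mof knockout. Of 1897 tested there, 890 passed the threshold (46.9%, against 37.5% of all genes tested in MEFs), 546 in the same direction and 344 in the opposite one. With Adriamycin in MEFs, 1006 of 1988 (50.6%) had the same sign. The groups of genes differed. All 11 lower p53 targets had a positive value in MEFs, and 10 of them were past the threshold there (17.8% of all tested genes were called higher and 19.6% lower in MEFs), such as Mdm2 (1.10), Perp (1.72) and Gdf15 (2.17) in the authors' deposited table. Of all 48 p53 targets tested in MEFs, 39 were called higher and 3 lower, so the 10 of 11 lay near the share of the list. All 7 higher mitotic genes were called lower in MEFs, as were 86 of the whole list of 87, with Mki67 at -1.36 and Spc24 at -2.08. Of the 18 higher interferon-stimulated genes 17 were called higher in MEFs, where Ifit1 stood at 4.42 and Usp18 at 5.16. Over the whole list, 62 of 68 tested genes were called higher in MEFs and 0 lower, so the 17 of 18 lay near the share of the list. Of the 15 higher Hox genes 1 was called higher there and 0 lower. Nid2 stood at -0.98 and Abi3bp at -2.08 in MEFs. Differences between the cell types were not tested, and the methods of depletion, the drug doses and the scale of each table differ.

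**Figure D5:**
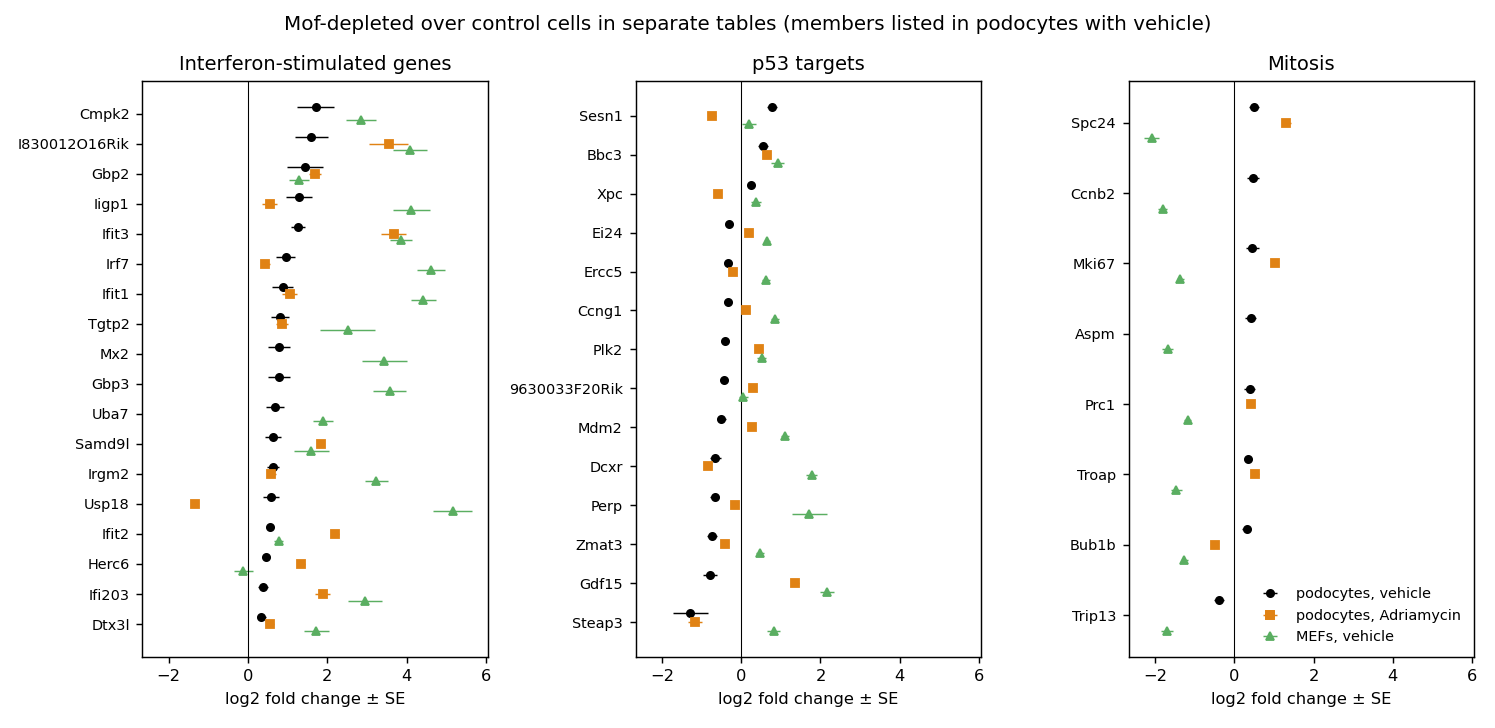
For the listed interferon-stimulated genes (left), p53 targets (middle) and mitotic genes (right), points give the log2 fold change and bars the SE, Mof-depleted over control, in the authors' deposited tables of podocytes with vehicle (black circles), podocytes with Adriamycin (orange squares) and MEFs with vehicle (green triangles). Squares are missing for genes that the Adriamycin table does not list. In the middle panel black circles of 11 genes lie under 0 with their green triangles above it, and in the right panel all triangles lie under 0.

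In MEFs with Adriamycin 32.7% of tested genes were called, 16.6% higher and 16.1% lower. A set of 375 genes passed the threshold in all 4 tables, and 84 of these had the same direction in each, 57 higher and 27 lower. Beside Kat8, the lower ones included Kbtbd8 (-0.65 ± 0.23), an adaptor of the CUL3 ubiquitin ligase, and Pus10 (-0.43 ± 0.11), a pseudouridine synthase. The higher ones included Cp, ceruloplasmin, the copper ferroxidase (1.20 ± 0.12, mean count 12916), and the calcium-linked membrane protein gene Ano5 (1.74 ± 0.42). Ifit1 and Ifit3 were in the set as well.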

How the data were processed

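RNA was measured in 24 samples, with poly(A)-enriched libraries by Illumina protocols, per the labels. The submitters' processing notes name DESeq2 1.4.1, featureCounts 1.4.5-p1, TopHat2 2.0.13 and the build GRCm38. The files used are the authors' 4 comparison tables. Their signal column is the authors' mean normalized count. They also hold, as deposited, a log2 fold change with its SE, a score (the Wald statistic), the p-value and an adjusted p-value. The authors' fold changes may be shrunken, which no source used here states. Precision is limited to the deposited SE, whose median over listed genes was 0.130.

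How many genes were tested was worked out from p and adjusted p (Benjamini-Hochberg), a step tested on simulated data (exact in 100% of 20 draws). The difference between podocyte tables was a z test, adjusted over 1518 genes; on simulated data (200 of 1518 genes changed, 20 draws) it recovered 58.3% of changes of 0.5 and 91.0% of changes of 1, with 4.57% and 4.69% of calls false. The simulation does not cover unequal shrinkage between tables. It also did not keep only genes past a threshold in both tables, as the 1518 genes were. Its share of false calls may therefore not hold for the 962 genes called. Gene positions come from GENCODE M21, to which 1986 of 1990 listed IDs matched. Promoters come from RefSeq (GRCm38.p6). The 69 lists matched 4204 entries and 3 were not matched. Analyses used Python 3.11.15 with pandas 2.3.3, numpy 2.4.6, scipy 1.17.1 and matplotlib 3.10.9.

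The genes, lists and tests were chosen with earlier results of these data known. Named genes were Kat8; the 15 highest and 15 lowest fold changes at a mean count of 100 or more, predicted genes left out; the 5 smallest adjusted p in each direction; of each list up to 4 higher and 4 lower members by adjusted p; and the 5 genes in each direction with the largest difference between tables, the largest change in both podocyte tables and the largest in all 4. Other list members named in the text, the neighbours in gene runs and the genes at the edge of the table were chosen after their values were seen. Not every gene the rule gives is reported here. Alternatives were stricter thresholds and adjustments, minimum mean counts of 10 and 100, and moved or rescaled fold changes.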

Additional observations from a re-analysis of the deposited data

Results flagged for a closer look

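Among the 15 highest and 15 lowest fold changes of the vehicle table and the 5 largest differences in each direction, 24 genes differed between the podocyte tables by the z test at an adjusted p of 0.05, and each difference is the value with Adriamycin minus the value with vehicle, on the log2 scale. Genes of opposite direction had to differ, since they passed in both tables. Among genes that fell with vehicle and fell less or rose with Adriamycin, the differences were 3.54 for Prss27, 3.40 for Krt20, 3.40 for Ctgf, 3.36 for 1110002E22Rik, 1.98 for Dlc1, 1.72 for Svop, 1.39 for Sgms2, 0.73 for Fosl1 and 0.54 for Prdx6. Genes that rose with vehicle and rose more with Adriamycin were Ms4a2 (3.20), Abi3bp (2.28) and Kcnj16 (1.39). Genes that rose with vehicle and rose less with Adriamycin were Il17rb (-1.76), Plekha4 (-1.45) and Aqp1 (-0.90).

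Genes that rose with vehicle and fell with Adriamycin were Cited1 (-6.22), Nptx1 (-5.03), Cebpa (-4.20), Sfrp2 (-4.19), Bai1 (-4.14), Rhbdl3 (-3.89), Chdh (-3.12), Nrxn2 (-2.93) and Sept4 (-2.71). Cited1 and Nptx1 had mean counts of 10.9 and 10.3 in the vehicle table. Chdh and Il17rb, neighbours that rose alike with vehicle, stood at -0.79 and 1.05 in the authors' deposited Adriamycin table. The causes were not tested.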

How the results depend on the processing

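The counts of higher and lower genes were 1207 and 783 as deposited. They became 791 and 391 at an adjusted p of 0.01, 457 and 171 at 0.001, 651 and 285 with the Benjamini-Yekutieli adjustment, and 316 and 106 with the Bonferroni adjustment, fewer by construction. With fold changes moved up by 0.1 the lower genes numbered 328, and with a move down the higher genes numbered 770; genes outside the table could not enter. Genes in both podocyte tables with the same direction numbered 997, and 559 at 0.01 in both. Genes with the same sign in MEFs with vehicle numbered 1132, and 546 when they had also to pass the threshold there. Minimum mean counts of 10 and 100 left the counts of higher and lower genes within 1.5 times, and the z test gave 962 genes, 882 at 0.01, 879 with mean counts of at least 100 and 844 with vehicle fold changes rescaled, of which 521 were of opposite direction in each case, or 471 at the minimum count. No paired analysis was possible because the tables hold no value per sample, and leaving out a replicate was not run for the same reason.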
